A study of Homo sapiens with 6 samples.

Results

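The 10 luminal and hormone receptor genes ESR1, PGR, GATA3, FOXA1, XBP1, TFF1, SPDEF, AGR2, GREB1 and CA12 were followed in SUM159 cells, a human triple negative breast cancer (BC) cell line. A gene was taken when the annotation of the array platform gave its symbol to a transcript cluster, the group of probes that the array reports as 1 value. All 10 genes had exactly 1 such transcript cluster, among 53617 transcript clusters and 14884 different gene symbols in the table. The rule for taking them uses no measured value. Total RNA of 3 cultures of SUM159 cells stably overexpressing miR-1287-5p was compared with that of 3 cultures of control cells, each culture on its own Affymetrix Human Gene 2.0 ST array. The miR-1287-5p overexpressing cells carried the lentiviral vector LentimiRa-GFP-hsa-miR-1287-5p and the control cells the empty vector Lenti-III-mir-GFP, so both groups had been transduced, carried a GFP marker and had been selected with puromycin. Both grew in Ham's F12 medium with serum, insulin and hydrocortisone. All values are log2 signals, and arrays measure RNA, not protein.

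Luminal cells line the milk ducts, and part of them use estrogen receptor alpha, a hormone-activated transcription factor encoded by ESR1. FOXA1 and GATA3 open and hold the chromatin at which the receptor binds, and bound receptor switches on targets such as PGR, TFF1 and GREB1. Triple negative BC is defined in pathology by the lack of estrogen receptor protein, progesterone receptor protein and HER2 amplification. The overexpressed microRNA is shown because it is what separates the 2 groups. The mature sequence, from RefSeq (GRCh38.p14, chr10:98395271-98395292, minus strand), carries its seed, the bases that pair with a target RNA, in capitals.

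hsa-miR-1287-5p: uGCUGGAUcagugguucgaguc

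The line label was checked first against marker genes. Of 13 measured basal and claudin-low markers, 12 lay above the median of all transcript clusters in control cells, which was 4.36. Of all genes with a symbol, 69.3% did. The intermediate filament gene VIM, the receptor tyrosine kinase gene AXL and the repressor gene SNAI2 lay at the 98.4th, 98.8th and 98.6th percentile of all transcript clusters in control cells. The basal keratins KRT5 and KRT14 were at the 50.0th and 62.4th percentile. TWIST1, another transcription factor of the mesenchymal state, was the marker below the median, with 4.37, 4.41 and 3.80 in miR-1287-5p overexpressing cells and 3.93, 3.94 and 4.08 in control cells. Of 7 measured leukocyte, endothelial and fibroblast markers, 1 was above the median (CD68, a lysosomal gene), and the fibroblast genes DCN and LUM were at the 42.1st and 7.96th percentile. Of genes taken as low in a claudin-low line, CLDN3, CLDN7 and KRT19 lay above the median, at the 77.6th, 65.1st and 54.9th percentile. EPCAM and CLDN4 lay below it, at the 46.0th and 44.1st, as did ESR1 and PGR, so these markers went both ways. Markers such as ERBB2, CDH1 and CAV1 had no transcript cluster with that symbol and were not analysed here. The median signals of the 6 arrays lay between 4.33 and 4.42, and arrays correlated at r = 0.970 to 0.988. A principal component analysis used only the 26808 transcript clusters whose mean over the 6 arrays exceeded the median of such means (4.37). Its first component held 55.7% of their variance. On it the control cultures lay at -41.5, 60.6 and 23.4, outside the range of the overexpressing cultures at both ends (8.10, -14.6 and -36.0). Between the groups, 2 of the 53617 transcript clusters passed an adjusted p under 0.05 (limma, Benjamini-Hochberg adjustment; 0.00373%).

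In control cells the luminal genes fell into 3 ranges. XBP1, CA12 and GATA3 lay far over the array-wide median (4.36), SPDEF lay 1.17 and GREB1 0.25 above it, and ESR1, PGR, FOXA1, TFF1 and AGR2 lay below it. A position below the median does not measure an absence of RNA, because the signal of a transcript cluster also depends on its probes. As a guide to signal from genes that a breast line is not known to use, 14 tissue-restricted genes of other organs (liver, brain, testis and others) were read in the same arrays. Their control means ran from 2.54 to 5.77 with a median of 3.98, and 7 of the 14 lay above the array-wide 4.36. The control means of 6 luminal genes (ESR1, PGR, FOXA1, TFF1, AGR2 and GREB1) lay under 5, within that range, and SPDEF at 5.53 lay between its 90th percentile (5.24) and its top, set by the sperm protamine gene PRM2 at 5.77. GATA3, XBP1 and CA12 lay outside that range, above it. Since each transcript cluster has its own probes, this range describes how high a signal can lie without known use of the gene and does not rank these genes or sort expressed from silent ones. Of 9 constitutively expressed genes, all 9 lay above the median, at or above the 84.8th percentile. Among all 14884 genes with a symbol, 69.3% were above the median, against 50.0% of the luminal genes (5 of 10). In miR-1287-5p overexpressing cells, whose median was 4.38, 7 of 10 were above it, since FOXA1 (4.49) and TFF1 (4.44) lay above it there and in control cells 0.02 and 0.09 below it. The same 7 genes were above the control median without control culture 2.

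**Figure D1:**
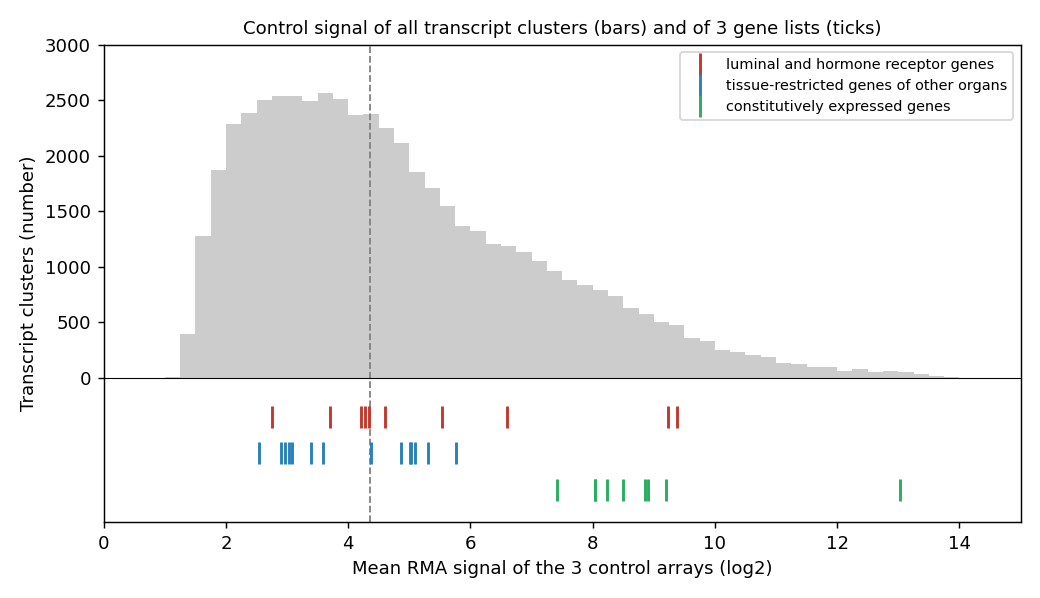
Distribution of the mean control signal (log2, x axis) over 53617 transcript clusters (bars, number of transcript clusters), with the luminal and hormone receptor genes, 14 tissue-restricted genes and 9 constitutively expressed genes as ticks below. The dashed line is the median, 4.36; the ticks of GATA3, XBP1 and CA12 lie to the right of the tissue-restricted range (2.54 to 5.77).

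The promoters of the luminal genes differed in their number of CpG dinucleotides, the sites where vertebrate DNA is methylated. RefSeq windows of the 250 bases before an annotated start were at hand for 8 of the 10 genes (21 windows, all but TFF1 and GREB1). In the window richest in CpG, XBP1 held 31, GATA3 30, FOXA1 26, CA12 13, PGR 12, ESR1 11, SPDEF 6 and AGR2 3 CpG. Across all 10749 genes with a symbol and a window, taking the richest window of each, the median was 20. The share of genes above the median control signal was 30.3% of 1691 genes with 0 to 4 CpG, 56.9% of 981 with 5 to 9, 79.8% of 2620 with 10 to 19 and 87.6% of 5457 with 20 to 58. Spearman's rho between CpG number and control signal was 0.44, a description across genes of the same arrays that share base composition with their promoters. AGR2, with few CpG and a low signal, and XBP1 and GATA3, with many and a high signal, lay along this trend. FOXA1 held 26 CpG and lay 0.02 below the median control signal. CA12, with 13 CpG, had a control signal of 9.38. PGR with 12 and ESR1 with 11 CpG lay below the median control signal, and SPDEF with 6 lay above it. The luminal genes thus went both ways. Windows of 3 of them follow, in the direction of the gene and with each CpG in capitals. On GRCh38.p14 they are XBP1 (chr22:28800570-28800819, minus strand), FOXA1 (chr14:37595250-37595499, minus strand) and AGR2 (chr7:16805000-16805249, minus strand).

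XBP1: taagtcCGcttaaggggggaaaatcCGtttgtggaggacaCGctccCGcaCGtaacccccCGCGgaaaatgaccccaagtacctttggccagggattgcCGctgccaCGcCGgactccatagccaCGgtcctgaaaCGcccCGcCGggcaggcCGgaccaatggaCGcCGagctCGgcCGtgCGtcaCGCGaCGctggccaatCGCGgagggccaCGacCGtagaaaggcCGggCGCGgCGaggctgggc
FOXA1: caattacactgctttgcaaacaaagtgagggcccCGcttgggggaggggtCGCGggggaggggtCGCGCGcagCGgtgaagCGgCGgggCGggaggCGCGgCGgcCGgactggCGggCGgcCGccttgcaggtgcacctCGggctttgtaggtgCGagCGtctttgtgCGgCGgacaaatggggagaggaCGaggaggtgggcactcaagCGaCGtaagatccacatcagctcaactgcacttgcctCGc
AGR2: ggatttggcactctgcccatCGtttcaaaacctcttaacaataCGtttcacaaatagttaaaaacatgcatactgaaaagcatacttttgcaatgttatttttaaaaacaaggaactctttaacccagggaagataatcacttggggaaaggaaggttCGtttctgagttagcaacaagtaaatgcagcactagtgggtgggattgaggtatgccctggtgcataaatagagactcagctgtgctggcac

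Short motifs were then searched on both strands of the same 250 bases. The palindromic estrogen response element GGTCANNNTGACC was in 0.0399% of 35116 windows of all genes and in 0 of the 21 windows of luminal genes. The single receptor site AGGTCA, which can overlap the palindrome, was in 12.1% and in 0 of 21, and the forkhead motif TGTTTAC was in 2.98% and in 0 of 21. The GATA motif AGATAA was in 9.17% of all windows and in 1 luminal window, that of AGR2. ACGTG, the core of hypoxia and unfolded protein response elements, was in 18.5% of all windows and in 4 luminal ones, 1 each of ESR1, GATA3, XBP1 and SPDEF. A match is a run of letters and not a measured binding site.

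**Figure D2:**
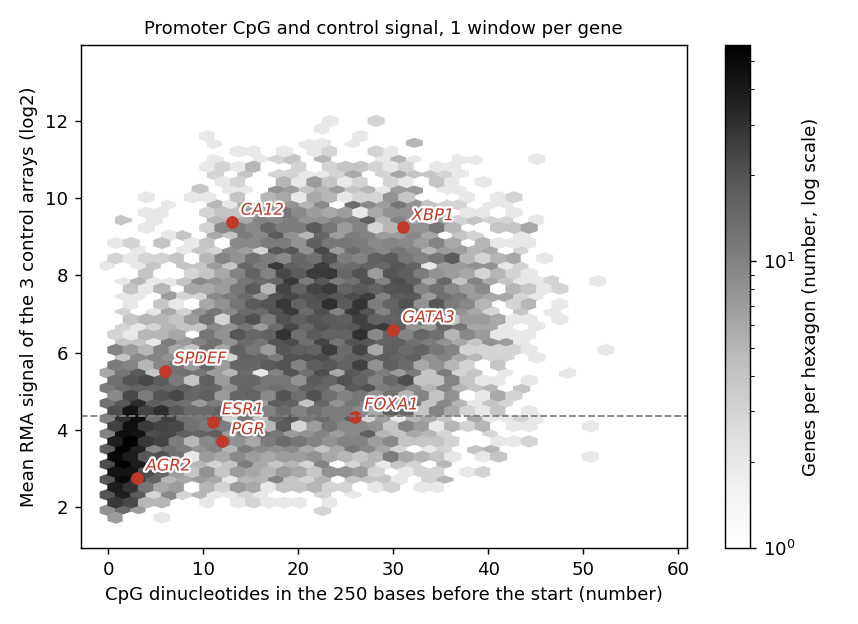
Number of CpG in the richest 250-base window before the start (x axis) against mean control signal (log2, y axis) for 10749 genes (grey, genes per hexagon on a log scale) and 8 luminal genes (red). FOXA1 with 26 CpG sits on the median (dashed, 4.36), while XBP1 with 31 CpG sits at 9.24.

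No luminal gene differed between miR-1287-5p overexpressing and control cells by the test. At an adjusted p under 0.05, 0 of 10 passed by limma, 0 of 10 had an unadjusted p under 0.05 (all transcript clusters: 5.4%), and in 0 of 10 the 3 overexpressing arrays lay wholly above or below the 3 control arrays (all transcript clusters: 11.2%). Log2 fold changes, overexpressing over control, ran from -0.17 (CA12) to 0.29 (AGR2), 8 positive and 2 negative, with a median of 0.06 against 0.03 over all transcript clusters. Adjusted p-values from limma lay between 0.871 and 0.992, and two-sided exact permutation p-values between 0.2 and 1.0, where the smallest that 3 against 3 arrays can give is 0.1. The 95% intervals bound the differences in signal better than the p-values do. For 7 of the 10 genes the interval lay within 1.5-fold either way, and for all 10 within 2-fold. These are bounds on the array signal and not on the amount of RNA. The control means of all but GATA3, XBP1 and CA12 lay within the signal range of the tissue-restricted genes. The genes with an interval past 1.5-fold were ESR1, PGR and AGR2, all below the median in control cells.

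**Figure D3:**
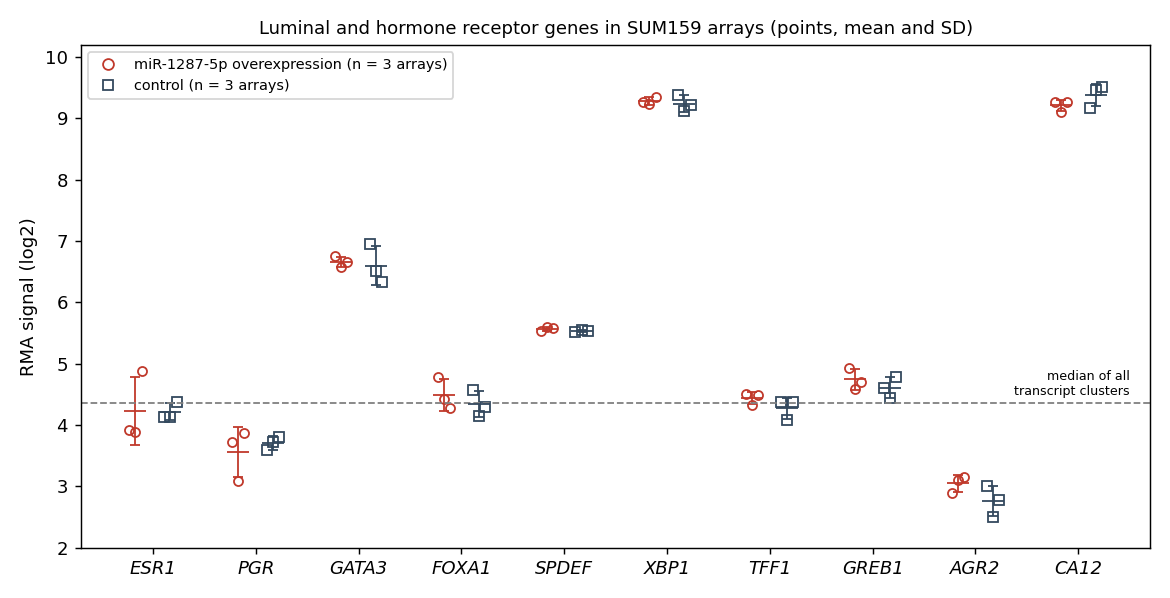
Log2 signal of each luminal gene (x axis) in the 3 miR-1287-5p overexpressing arrays (circles) and the 3 control arrays (squares), with mean and SD. The groups overlap for all 10 genes, and ESR1 in overexpressing culture 3 (4.87) stands apart from the other 5 arrays (3.89 to 4.38).

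The hormone receptors came first. ESR1, estrogen receptor alpha, had 3.92, 3.89 and 4.87 in miR-1287-5p overexpressing cells and 4.14, 4.13 and 4.38 in control cells. Overexpressing culture 3 was the highest of the 6 arrays and the other overexpressing cultures were the lowest, so the groups overlapped. The means were 4.23 ± 0.56 and 4.21 ± 0.14 in overexpressing and control cells (SD, n = 3 each), and the log2 fold change was 0.01 ± 0.27 (SE, 95% interval -0.62 to 0.65; limma adjusted p = 0.992). Without overexpressing culture 3 it was -0.31, and the sign turned in 6 of the 13 alternatives run for ESR1. The spread within groups was 0.41 for ESR1, at the 86.4th percentile of all transcript clusters, whose median was 0.21.

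PGR, the progesterone receptor and a classical estrogen target, had 3.73, 3.09 and 3.87 in miR-1287-5p overexpressing cells and 3.58, 3.73 and 3.80 in control cells. It was below the array's median in all 6 arrays, and overexpressing culture 2 was the lowest. Its log2 fold change was -0.14 ± 0.22 (SE, 95% interval -0.65 to 0.36; limma adjusted p = 0.91). Without overexpressing culture 2 it was 0.09.

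GATA3, the zinc finger factor of luminal differentiation, had 6.75, 6.58 and 6.65 in miR-1287-5p overexpressing cells and 6.95, 6.51 and 6.33 in control cells. All 6 arrays were above their medians, and the control arrays reached higher and lower than the overexpressing ones. Its log2 fold change was 0.07 ± 0.18 (SE, 95% interval -0.36 to 0.49; limma adjusted p = 0.951). GATA3 stood at the 79.2nd percentile of all transcript clusters in overexpressing cells and at the 78.2nd in control cells.

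FOXA1, the forkhead pioneer factor of the estrogen receptor, had 4.78, 4.42 and 4.28 in miR-1287-5p overexpressing cells and 4.58, 4.15 and 4.30 in control cells. The arrays of both groups straddled the median, with 2 of 3 overexpressing and 1 of 3 control arrays above it. The difference was 0.15 ± 0.18 (SE, 95% interval -0.28 to 0.58; limma adjusted p = 0.893).

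SPDEF, an ETS factor of secretory and luminal epithelium, was the most even of the 10 genes. It had 5.53, 5.60 and 5.57 in miR-1287-5p overexpressing cells and 5.52, 5.54 and 5.54 in control cells, with a spread within groups of 0.02. On the log2 scale the difference was 0.04 ± 0.12 (SE, 95% interval -0.24 to 0.31; limma adjusted p = 0.96), and its interval was the narrowest of the 10.

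XBP1, the factor of the unfolded protein response and of secretory cells, was near the top of the distribution in both groups. It had 9.27, 9.23 and 9.35 in miR-1287-5p overexpressing cells and 9.38, 9.12 and 9.22 in control cells. The overexpressing arrays fell inside the range of the control arrays. The log2 fold change was 0.05 ± 0.13 (SE, 95% interval -0.26 to 0.35; limma adjusted p = 0.954), which is 0.835-fold to 1.28-fold. In overexpressing and control cells XBP1 stood at the 94.7th and 94.6th percentile.

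TFF1, a secreted trefoil peptide and a textbook estrogen target, had 4.51, 4.32 and 4.49 in miR-1287-5p overexpressing cells and 4.38, 4.07 and 4.37 in control cells. Overexpressing culture 2 lay among the control arrays, and control culture 2 was the lowest of all. The log2 difference of TFF1 was 0.17 ± 0.14 (SE, 95% interval -0.17 to 0.50; limma adjusted p = 0.877). GREB1, a cofactor of the estrogen receptor that the receptor itself induces, had 4.93, 4.59 and 4.70 in overexpressing cells and 4.61, 4.44 and 4.78 in control cells. All 6 arrays were above their medians by a small margin. The log2 fold change of GREB1 was 0.13 ± 0.15 (SE, 95% interval -0.23 to 0.49; limma adjusted p = 0.89).

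AGR2, a protein disulfide isomerase of secretory epithelium, was the lowest-placed of the 10 genes, at the 25.1st percentile in overexpressing cells and the 20.2nd in control cells. It had 2.89, 3.10 and 3.16 in miR-1287-5p overexpressing cells and 3.00, 2.51 and 2.77 in control cells, so overexpressing culture 1 lay below control culture 1. Its difference was the largest of the 10, with means of 3.05 ± 0.14 and 2.76 ± 0.25 (SD, n = 3 each) in overexpressing and control cells and a log2 fold change of 0.29 ± 0.17 (SE, 95% interval -0.10 to 0.68; limma adjusted p = 0.871). Without control culture 1 its log2 fold change was 0.41, with an unadjusted limma p of 0.0423 and an adjusted p of 0.376, in a fit in which 12.9% of all transcript clusters had an unadjusted p under 0.05. Without control culture 2 the log2 fold change was 0.16.

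CA12, a membrane carbonic anhydrase that faces outward and marks estrogen receptor positive tumors, had the highest percentile of the 10 in control cells, the 95.1st. It had 9.27, 9.10 and 9.26 in miR-1287-5p overexpressing cells and 9.17, 9.47 and 9.51 in control cells. Control culture 1 lay between the overexpressing cultures, and the other control cultures lay above them. The log2 fold change was -0.17 ± 0.15 (SE, 95% interval -0.51 to 0.17; limma adjusted p = 0.877). In the fit with array weights, which gives control culture 3 a weight of 7.91 and control culture 1 one of 0.366, it was -0.29 with an unadjusted p of 0.0278 and an adjusted p of 0.186 (22.1% of all transcript clusters had an unadjusted p under 0.05 there).

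**Figure D4:**
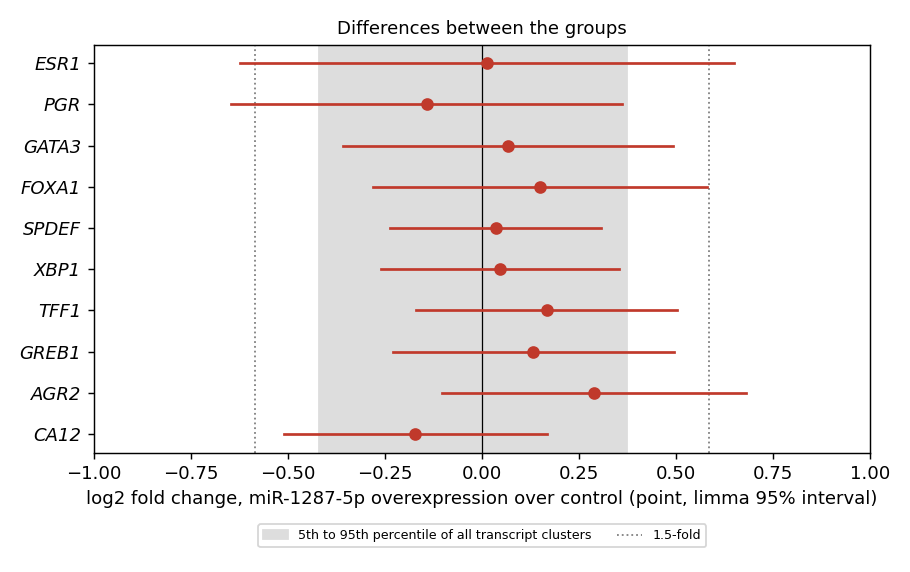
Log2 fold change of each luminal gene, miR-1287-5p overexpressing over control (x axis; point with limma 95% interval), over the 5th to 95th percentile of all transcript clusters (grey, -0.42 to 0.37). All 10 intervals include 0, and those of ESR1, PGR and AGR2 pass the dotted 1.5-fold lines.

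Positive log2 fold changes were somewhat more frequent among dim transcript clusters than over all. Of the 26809 transcript clusters at or below the median, 60.2% had one, with a median of 0.05, against 55.5% of all 53617, and 13 of the 14 tissue-restricted genes had a positive one, with a median of 0.10. In 5 of the 6 luminal genes with a control mean under 5, control culture 2 was the lowest control array. It was also the lowest for 42.6% of all transcript clusters at or below the median, against 24.2% for control culture 1 and 33.2% for control culture 3. After cyclic loess between arrays the log2 fold change was 0.11 for FOXA1, 0.13 for TFF1, 0.25 for AGR2 and -0.03 for ESR1.

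Other estrogen-regulated genes gave no common direction. Of 14 measured genes, 6 had a positive and 8 a negative log2 fold change (median -0.04), and 0 passed the adjusted test. An unadjusted p under 0.05 was found for 1 gene in the higher direction (all transcript clusters: 2.96%) and for 0 in the lower one (2.44%). That 1 became 0 without overexpressing culture 2 or 3 or control culture 3. In either direction there were 2 by the methods' t-test, with array weights and without control culture 1. Of all transcript clusters, 5.73%, 22.1% and 12.9% passed in those fits. Non-overlapping groups were found for 2 genes higher and 1 lower in overexpressing cells, against 6.88% and 4.33% of all transcript clusters. The chemokine gene CXCL12 had 6.90, 7.19 and 7.36 in miR-1287-5p overexpressing cells and 6.70, 6.76 and 6.59 in control cells. All overexpressing arrays lay above all control arrays, with a log2 fold change of 0.47 ± 0.16 (SE; limma p = 0.0191, adjusted p = 0.871, exact permutation p = 0.1). The secreted glycoprotein gene STC2 had 8.61, 8.68 and 8.67 in overexpressing cells and 8.85, 8.85 and 8.86 in control cells, lower in every overexpressing array by a small step of -0.20 (limma adjusted p = 0.871). PDZK1, a scaffold gene, was apart in the other direction, with means of 2.99 and 2.75 in overexpressing and control cells. In control cells 10 of the 14 were above the median, among them CCND1, the cell cycle gene cyclin D1, with 9.53, 9.51 and 9.37 in overexpressing and 9.55, 9.52 and 9.44 in control cells, and IGFBP4, an insulin-like growth factor binding protein, with means of 11.40 and 11.28. NRIP1, a corepressor that estrogen induces, varied by more than any luminal gene within the control group, with 4.85, 7.14 and 6.46, and lay at 6.22, 5.93 and 5.91 in overexpressing cells. ESR1 and its targets PGR and TFF1 had control means below the median, and its target GREB1 lay above it, at the 54.3rd percentile. CCND1 and IGFBP4 lay at the 95.6th and 98.7th percentile.

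Among 15 luminal lineage transcription factors beyond those above, 12 had a positive log2 fold change (median 0.07), against 55.5% of all transcript clusters. Of the 15, 2 had an unadjusted limma p under 0.05 (all transcript clusters: 5.4%) and 0 passed the adjusted test. The 2 became 1 with an intensity trend, with the replicate block and with dim transcript clusters left out. Without overexpressing or control culture 2 there was also 1, and without overexpressing culture 3 there was 0. Both genes of the main fit were of the AP-2 family. TFAP2C, an AP-2 factor that acts with the estrogen receptor in luminal cells, had 7.09, 7.23 and 7.46 in miR-1287-5p overexpressing cells and 6.85, 6.58 and 6.86 in control cells. TFAP2B had 4.05, 4.05 and 4.28 in overexpressing cells and 3.70, 3.71 and 3.92 in control cells. Their groups did not overlap, and the log2 fold changes were 0.50 ± 0.16 for TFAP2C and 0.35 ± 0.14 for TFAP2B (SE; limma p = 0.0139 and 0.0369, adjusted p = 0.871 and exact permutation p = 0.1 for both). TFAP2B stayed below the median in all 6 arrays. KLF5 and TBX3, the factors with the highest control means of the list, had log2 fold changes of 0.06 and 0.11.

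The surface and keratin genes of luminal epithelium split by gene. Of 17 measured, 9 had a positive and 8 a negative log2 fold change, with 1 gene on each side at an unadjusted p under 0.05 (all transcript clusters: 2.96% higher and 2.44% lower) and 0 at the adjusted level. With the replicate block, and without overexpressing culture 3, there was 1 in place of 2. There were 3 with array weights, without overexpressing culture 2 and without control culture 1. Of all transcript clusters, 22.1%, 4.48% and 12.9% passed in those fits. CD24, a surface glycoprotein of luminal cells, had 7.30, 7.27 and 6.96 in miR-1287-5p overexpressing cells and 7.80, 8.04 and 8.01 in control cells. Every overexpressing array lay below every control array, and the log2 fold change was -0.77 ± 0.15 (SE; limma p = 0.00117, adjusted p = 0.765, exact permutation p = 0.1). CD24 is among the genes the study itself chose as lower from these arrays, so its direction here is no independent observation. ESRP2, an epithelial splicing regulator, had 5.39, 5.44 and 5.57 in overexpressing cells and 5.20, 5.08 and 4.82 in control cells (log2 fold change 0.44 ± 0.15 SE; limma p = 0.0202, adjusted p = 0.871, exact permutation p = 0.1). EPCAM, an epithelial adhesion molecule, varied within groups, with 4.54 ± 0.45 in overexpressing and 4.14 ± 0.22 in control cells (SD, n = 3 each). The simple epithelial keratins KRT18 and KRT7 stood above the 90th percentile in control cells (97.2 and 94.3), whereas KRT19 stood at the 54.9th.

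The 7 other nuclear hormone receptors and the receptor's coregulators held no gene past the unadjusted threshold in the main fit (all transcript clusters: 5.4%). Without control culture 1, 5 of the 14 coregulators passed it, and with array weights 3 did, in fits in which 12.9% and 22.1% of all transcript clusters passed. ESR2, estrogen receptor beta, had 4.53, 4.45 and 4.34 in miR-1287-5p overexpressing cells and 4.56, 4.50 and 4.49 in control cells, near the median in all 6 arrays. PPARD, a lipid-sensing receptor with the highest control mean of this list, averaged 10.09 ± 0.11 in overexpressing and 9.83 ± 0.17 in control cells (SD, n = 3 each), with groups that did not overlap (log2 fold change 0.26; limma adjusted p = 0.871). All 14 measured coregulators were above the median in control cells, unlike ESR1 itself, and 9 of 14 had a negative log2 fold change. The largest were those of MED1, a Mediator subunit, at -0.44, and of the coactivator NCOA1 at -0.36 (limma adjusted p = 0.871 each). In MED1 the control arrays alone ran from 9.47 to 10.17. KDM1A, a histone demethylase, was lower in every overexpressing array, at 10.80 ± 0.02 against 10.94 ± 0.03 in control cells (SD, n = 3 each). Of the ERBB receptors and their 17q12 neighbours, all 7 measured had a positive log2 fold change (median 0.08), against 55.5% of all transcript clusters. An unadjusted limma p under 0.05 was found for 0 of the 7 (all transcript clusters: 5.4%). By the methods' t-test there was 1 (all transcript clusters: 5.73%), as there was with array weights (22.1%) and without control culture 1 (12.9%). ERBB3, a partner receptor of HER2, averaged 4.22 ± 0.11 in overexpressing and 3.99 ± 0.09 in control cells, below the median in both, and EGFR 9.91 ± 0.13 and 9.87 ± 0.14.

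**Figure D5:**
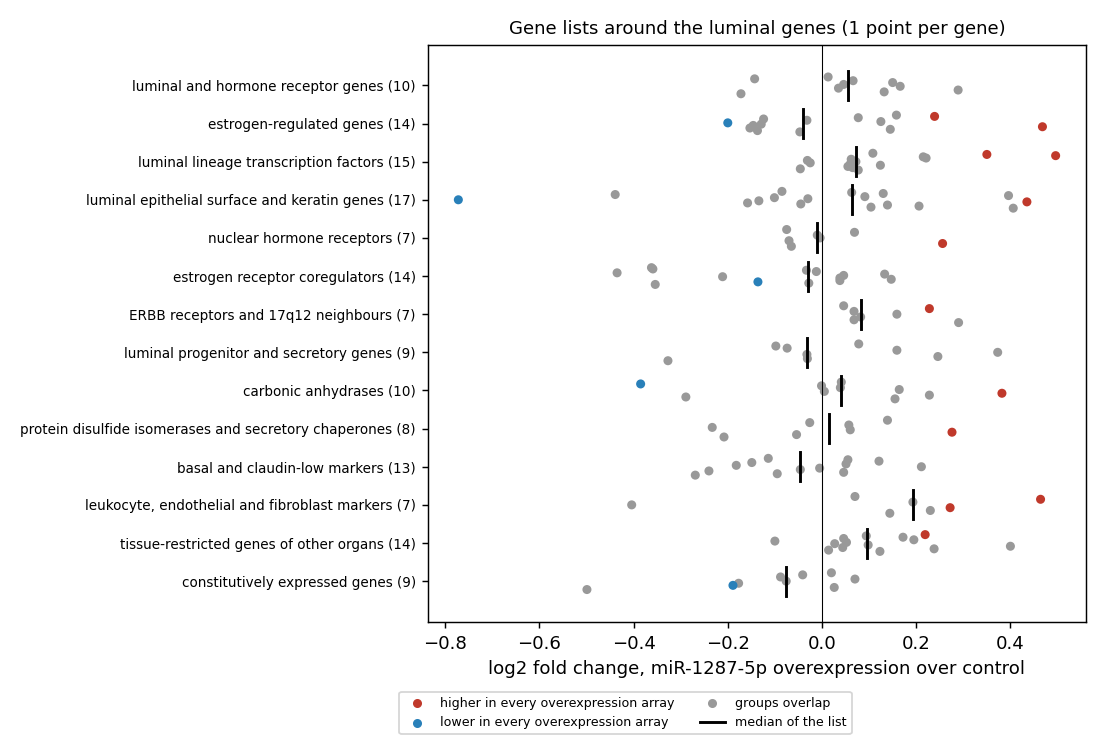
Log2 fold change, miR-1287-5p overexpressing over control (x axis), of each measured gene in 14 lists (rows, number of genes in parentheses), with the list median as a bar. Red and blue points are genes whose groups do not overlap, of which the luminal and hormone receptor genes have 0; the lowest point is CD24 at -0.77 and the highest TFAP2C at 0.50.

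The relatives of CA12 and AGR2 were read beside them. Of 10 other carbonic anhydrases, 4 were above the median in control cells, and 1 gene on each side had an unadjusted p under 0.05 (all transcript clusters: 2.96% higher and 2.44% lower). The 2 fell to 1 with the replicate block, with cyclic loess and with dim transcript clusters left out. They also fell to 1 without control culture 3 and without overexpressing culture 2 or 3. There were 3 with array weights and without overexpressing culture 1 (all transcript clusters: 22.1% and 5.67%). CA2, the cytosolic form, had 6.03, 6.02 and 6.07 in miR-1287-5p overexpressing cells and 6.44, 6.40 and 6.44 in control cells. Each group was tight and the step between them clear of both spreads, with a log2 fold change of -0.39 ± 0.12 (SE; limma p = 0.0119, adjusted p = 0.865, exact permutation p = 0.1). CA10, a family member without enzyme activity, averaged 3.25 ± 0.21 in overexpressing and 2.87 ± 0.08 in control cells (SD, n = 3 each, limma p = 0.0369, adjusted p = 0.871, exact permutation p = 0.1). Of 8 protein disulfide isomerases and secretory chaperones, 7 were above the median in control cells. AGR3, the closest relative of AGR2, was the exception, with 1.82, 2.30 and 2.08 in overexpressing cells and 1.91, 1.76 and 2.12 in control cells, at the 5.6th percentile in control cells. HYOU1, a chaperone of the endoplasmic reticulum, averaged 10.94 ± 0.06 in overexpressing and 10.66 ± 0.05 in control cells (SD, n = 3 each), with groups that did not overlap (log2 fold change 0.28 ± 0.12 SE, limma adjusted p = 0.871). XBP1 itself had overlapping groups, and ERN1, the sensor kinase that splices its RNA, had 5.66, 5.93 and 5.97 in overexpressing cells and 5.97, 5.81 and 5.94 in control cells.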

How the data were processed

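RNA of 3 miR-1287-5p overexpressing and 3 control SUM159 cultures, named as biological triplicates in the design, was hybridized to 1 array each. The deposited values are log2 signals. The authors corrected the background, quantile normalized the arrays and condensed the probes of each transcript cluster by median polish (RMA, Partek Genomics Suite 6.6). A filter is named in the methods but not described. Quantile normalization gives all arrays nearly one distribution, so a change shared by most genes would not show. No further normalization was applied. Arrays have no read depth; their number and the spread between them limit the precision.

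Symbols came from the platform annotation table, which names 1 symbol for 16098 of 53617 transcript clusters and several for 0; the others were not analysed by name. A symbol with more than 1 transcript cluster was represented by that of highest mean over 6 arrays. Levels were set against the median of all transcript clusters and, as a guide, against the range of tissue-restricted genes; signals of different probes do not rank genes. Groups were compared with limma 3.58.1 under R 4.3.3 (lmFit, then eBayes, all transcript clusters, Benjamini-Hochberg adjustment, threshold 0.05, two-sided). Exact permutation tests for single genes were run in Python 3.11.15. The fit was tested on simulated data. The labels only number the replicates, and cultures of the same number were not treated as pairs in the main fit.

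The genes and the 13 further lists (estrogen-regulated genes, luminal transcription factors, luminal surface and keratin genes, nuclear hormone receptors, coregulators, ERBB receptors with 17q12 neighbours, luminal progenitor and secretory genes, carbonic anhydrases, disulfide isomerases and chaperones, basal and claudin-low markers, leukocyte, endothelial and fibroblast markers, tissue-restricted genes, constitutively expressed genes) were chosen with earlier results of these data known. The rule for named genes took all luminal genes and, per list, up to 4 with the smallest p and up to 4 with the highest control mean. Genes named outside it (VIM, KRT5, CLDN3, CLDN4, CLDN7, ERN1, NRIP1, LUM and, in the closing section, KIT and CSN3) were chosen after their values were seen. Alternatives were an intensity trend, the methods' t-test, a replicate block, centred medians, array weights, cyclic loess, a filter on dim transcript clusters, a fit to those with a symbol alone, other reference levels and each array left out in turn.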

Additional observations from a re-analysis of the deposited data

How the results depend on the processing

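At an adjusted p under 0.05, 0 of the 10 luminal genes passed in the main fit and in the alternatives run, of which the filter on dim transcript clusters tested only 6 (ESR1, PGR, TFF1 and AGR2 were filtered out); the lowest adjusted p was 0.186 (CA12, array weights). At an unadjusted p under 0.05 there were 2 luminal genes with array weights (AGR2 and CA12; 22.1% of all transcript clusters) and 0 to 1 with an array left out (AGR2 without control culture 1; 12.9%). FOXA1, TFF1, SPDEF, AGR2 and CA12 kept their sign in each fit that tested them, though FOXA1 was 0.0086 without overexpressing culture 1 and TFF1 0.066 without control culture 2. The log2 fold change of ESR1 was -0.012 with centred medians, -0.026 with cyclic loess, -0.17 with array weights and -0.31 to 0.18 with an array left out. With an array left out PGR ran from -0.29 to 0.092, GATA3 from -0.067 to 0.24 and XBP1 from -0.014 to 0.12, and GREB1 was -0.019 with array weights. The cause was not tested. Against the median of genes with a symbol (5.58), and against the highest tissue-restricted gene (5.77), 3 luminal genes were above in place of 5.

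Transcript clusters called numbered 2 in the main fit, 0 by the methods' t-test, 0 with the replicate block, 1 with cyclic loess, 5 with dim ones left out, 25 with array weights and 0 to 0 with an array left out. Over the brighter transcript clusters, deviations from the group mean correlated at -0.473, -0.00175 and -0.0809 between cultures of the same number. These values cannot show whether such cultures were handled together. The replicate block changed no luminal gene's call. At an unadjusted p under 0.05, 1587 were higher in the main fit, 821 with dim ones left out, 515 with only named ones, 6688 with array weights and 1024 to 3105 with an array left out; 1308 were lower in the main fit, and 854, 437, 5157 and 935 to 3787 under the same settings. Control culture 1 left out gave 3105 and 3787, and control culture 3 left out 1024 and 935. Since each luminal gene had 1 transcript cluster, the alternative of further ones gave no value.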

Other observations

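Genes of luminal progenitors and of milk secretion were mostly dim in these cells. Of 9 measured, 2 were above the median of all transcript clusters in control cells: STAT5B, a transcription factor of prolactin signalling, at the 79.8th percentile, and LTF, the milk protein lactoferrin, at the 63.6th. The progenitor factor gene ELF5, the receptor genes KIT and PRLR and the casein genes CSN2 and CSN3 lay between the 4.33rd and the 37.2nd percentile. Of the 9 genes, 4 had a positive and 5 a negative log2 fold change (median -0.03). Groups that did not overlap were found for 0 (all transcript clusters: 11.2%). An unadjusted limma p under 0.05 was found for 0 (all transcript clusters: 5.4%). There was 1 without overexpressing culture 1 and 1 without overexpressing culture 2 (all transcript clusters: 5.67% and 4.48%). STAT5A resembled ESR1 in its spread, with 4.28, 3.56 and 4.78 in miR-1287-5p overexpressing cells and 4.28, 4.25 and 4.32 in control cells. PIP, prolactin-induced protein, had 2.95, 2.70 and 2.41 in overexpressing cells and 3.23, 2.93 and 2.88 in control cells, and the log2 fold change was -0.33 ± 0.18 (SE; limma adjusted p = 0.871).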
